A study of Homo sapiens with 4 samples.

Results

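The enzymes that build cholesterol and fatty acids, and the proteins that switch those enzymes on and off, were followed in 4 derivatives of PC-3, an established human prostate cancer line. The 26 genes were chosen by name, with earlier results of these data known, so shares of members beside all genes are not those of an unselected list. A probe set is the group of short probes that reads a transcript on the array. A gene was used where a probe set carries its symbol and no other in the platform annotation. By that rule 23 genes with 53 probe sets were measured, among 19775 genes and 54613 probe sets in all: 12 of the sterol branch, 7 of the fatty acid branch and 4 regulators and carriers. CYP51A1, FADS1 and FDFT1 have no probe set with their symbol alone in that annotation and were not analysed here.

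RNA of each line was hybridised to 1 Affymetrix U133 Plus 2.0 array, so there were 4 arrays. LhTERTL/cre+ has long telomeres and basal hTERT, LhTERTL has long telomeres and overexpressed hTERT, and mock/cre+ and mock both have short telomeres and basal hTERT. All 4 share the PC-3 background and were labelled as untreated. hTERT is the catalytic subunit of telomerase, which extends chromosome ends, and Cre is a recombinase that removes DNA flanked by its target sites. Which promoter drives the exogenous hTERT, and whether a line is a clone or a pool, the labels do not state. The long group therefore holds 2 arrays and the short group 2 arrays, each array from a different line, and any p-value measures only the spread between these lines. The telomerase gene itself separated LhTERTL from the others on 1 of its 2 probe sets, at -0.16 in LhTERTL/cre+, 3.54 in LhTERTL, -0.12 in mock/cre+ and 0.12 in mock, while the other probe set read 0.10, -0.66, -0.06 and 0.06 in the same order.

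The values are log2 intensities from which the median of each probe set over the 4 arrays had been taken away, so 0 marks the middle of the 4 arrays and 1 unit is a 2-fold difference. They show differences between arrays and hold no level of expression. For the same reason the labelled cell type could not be checked against marker levels, and genes that PC-3 does not express could not be set aside. Values spread most widely on the LhTERTL array, with an SD over all probe sets of 0.335, against 0.179 in LhTERTL/cre+, 0.254 in mock/cre+ and 0.209 in mock. A gene's value below is the mean of its probe sets. MVD, FDPS, MSMO1, HSD17B7, ACSS2 and STARD4 have 1 probe set each.

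Cholesterol is made from acetyl-CoA through mevalonate, isoprenoid units, squalene and lanosterol, and the last steps trim lanosterol to cholesterol. Fatty acids are made from the same acetyl-CoA by carboxylation to malonyl-CoA, chain building by fatty acid synthase, elongation and desaturation. Both branches are switched on by the SREBP transcription factors, which sit in the endoplasmic reticulum as inactive precursors, are carried to the Golgi by SCAP when sterols are low, and are cut there to release the active factor. SREBP-2 (gene SREBF2) acts mainly on the sterol genes and SREBP-1 (gene SREBF1) mainly on the fatty acid genes, while INSIG1 holds the SCAP complex back when sterols are plentiful. Synthesis of new lipid, and fatty acid synthase in particular, is a known feature of prostate cancer cells.

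The promoters of 4 members are shown because these genes carry the results below: SREBF2 is the only one whose window holds a textbook sterol regulatory element, and HSD17B7, SCD and INSIG1 had the largest LhTERTL values in the sterol branch, the fatty acid branch and the regulators. Sequences are from RefSeq on GRCh38.p14 and run 5′ to 3′ from 250 bases before to 50 bases after the annotated start. Capitals mark the sterol regulatory element TCACNCCAC and the NF-Y box CCAAT, each read on either strand, so an NF-Y box on the opposite strand appears as ATTGG. Matches of both motifs do not overlap in these windows.
HSD17B7 promoter, chr1:162790452-162790751, plus strand: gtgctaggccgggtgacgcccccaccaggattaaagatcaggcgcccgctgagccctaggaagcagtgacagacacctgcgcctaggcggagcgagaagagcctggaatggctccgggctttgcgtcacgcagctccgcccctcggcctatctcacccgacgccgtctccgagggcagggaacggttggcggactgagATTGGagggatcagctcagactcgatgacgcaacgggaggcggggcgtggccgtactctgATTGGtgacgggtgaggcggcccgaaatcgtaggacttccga
SCD promoter, chr10:100346983-100347282, plus strand: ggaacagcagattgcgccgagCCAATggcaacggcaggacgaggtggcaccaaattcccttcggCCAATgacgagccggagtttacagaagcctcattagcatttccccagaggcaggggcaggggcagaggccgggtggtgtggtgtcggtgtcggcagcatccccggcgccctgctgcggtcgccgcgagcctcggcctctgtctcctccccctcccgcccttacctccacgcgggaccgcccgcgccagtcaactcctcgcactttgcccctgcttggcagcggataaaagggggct
SREBF2 promoter, chr22:41832855-41833154, plus strand: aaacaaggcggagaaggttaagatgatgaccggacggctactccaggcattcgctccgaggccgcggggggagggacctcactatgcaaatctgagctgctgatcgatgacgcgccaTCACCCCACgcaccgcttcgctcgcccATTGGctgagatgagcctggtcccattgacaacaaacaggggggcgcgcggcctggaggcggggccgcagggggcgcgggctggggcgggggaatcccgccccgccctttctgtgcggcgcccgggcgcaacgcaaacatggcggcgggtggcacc
INSIG1 promoter, chr7:155297628-155297927, plus strand: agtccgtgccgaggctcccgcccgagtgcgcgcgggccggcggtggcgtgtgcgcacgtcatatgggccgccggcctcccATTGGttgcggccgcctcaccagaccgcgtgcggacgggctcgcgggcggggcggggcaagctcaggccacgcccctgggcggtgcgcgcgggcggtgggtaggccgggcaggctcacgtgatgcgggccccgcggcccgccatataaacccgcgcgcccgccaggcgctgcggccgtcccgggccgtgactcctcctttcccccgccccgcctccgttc

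A window was found for 21 of the 23 measured members, with SQLE and FASN without one, and some genes have several windows. NF-Y binds CCAAT boxes and is the usual partner of SREBPs. CCAAT was present on either strand in at least 1 window of 19 members, or 90.5%, against 39.7% of the 27305 genes in the promoter table. It was found in 11 of 11 sterol genes, 5 of 6 fatty acid genes and 3 of 4 regulators. The GC box GGGCGG, which Sp1 binds, was present in 20 members, or 95.2%, against 48.3% of all genes. A gene with more windows has more places for a match. Counted by window, CCAAT was present in 74.2% of member windows, against 34.6% of all windows. The GC box was present in 87.1%, against 45.0%. The E-box CACGTG was present in 3 members, or 14.3%, against 8.77% of all genes, and TCACNCCAC in 1 member, SREBF2, against 1.39% of all genes. The table of all promoters includes noncoding genes, and a match is a run of letters, not a measured binding site.

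Most of these genes shared a high value in LhTERTL, the line that overexpresses hTERT. Of the 23 measured members, 21 had their highest value of the 4 arrays there, against 27.6% of all genes. The count was 18 after quantile normalization. It was 16 without probe sets that can read several transcripts (_x_at and _s_at), where a gene had another kind. ACLY, ACSS2, DHCR7, HSD17B7, MVD and SCD have only _x_at or _s_at probe sets and kept them. The share of all genes was not counted in either setting, so 27.6% does not apply to these counts. Quantile normalization was run on the centred values and gives the 4 arrays the same spread. It therefore narrows the values of LhTERTL, which spread most widely, by its construction. All 12 sterol genes, 5 of 7 fatty acid genes and 4 of 4 regulators were among the 21, the exceptions being ACLY, highest in mock/cre+, and ACACA, highest in mock. Of the 53 member probe sets, 37 were highest in LhTERTL, against 26.3% of all probe sets. The sizes were mostly modest and varied widely, with LhTERTL values between -0.06 for ACLY and 1.57 for SCD. No member passed the main fits across all genes given further on, and the counts in this paragraph carry no test.

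**Figure D1:**
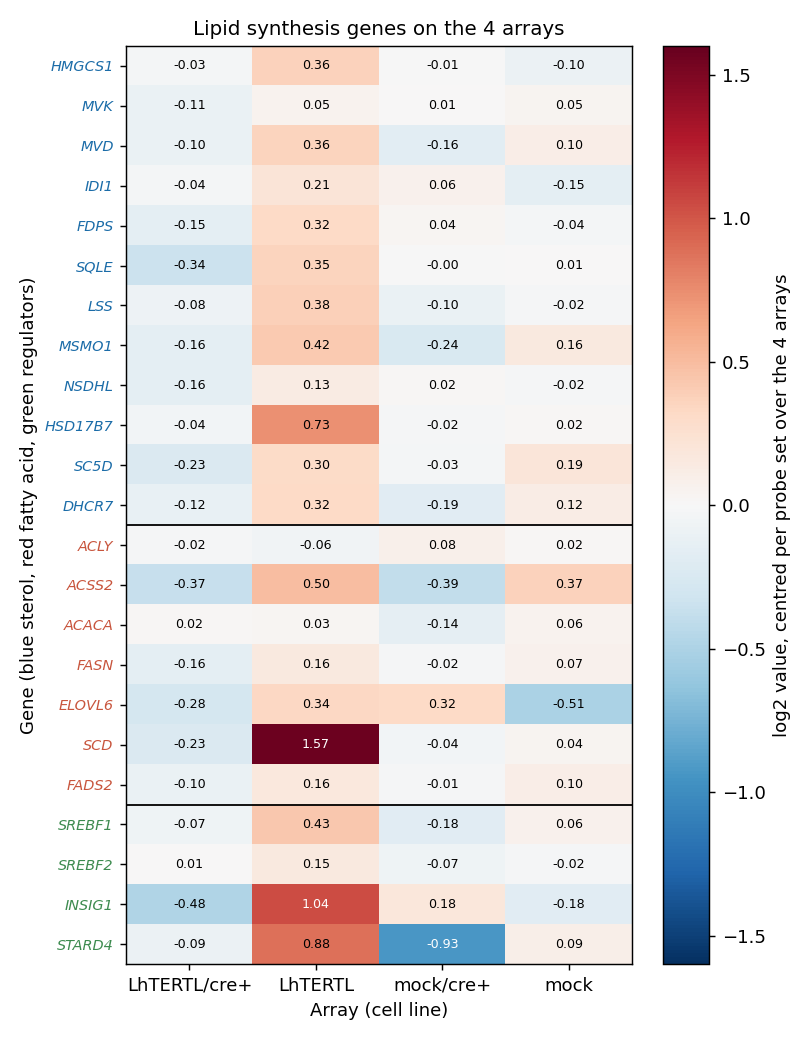
Centred log2 value of each of the 23 measured genes (rows; sterol branch, fatty acid branch and regulators from top to bottom) on the arrays of LhTERTL/cre+, LhTERTL, mock/cre+ and mock (columns), 1 array per line. The LhTERTL column is the highest for 21 of 23 genes, with SCD at 1.57, INSIG1 at 1.04, STARD4 at 0.88 and HSD17B7 at 0.73.

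All sterol genes were above 0 in LhTERTL, from MVK at 0.05 to HSD17B7 at 0.73. The branch averaged -0.13 in LhTERTL/cre+, 0.33 in LhTERTL, -0.05 in mock/cre+ and 0.03 in mock, and the SD over its 12 genes was 0.17 in LhTERTL, against 0.088 in LhTERTL/cre+, 0.097 in mock/cre+ and 0.10 in mock. HMGCS1, the cytosolic synthase that supplies HMG-CoA to the pathway, stood at -0.03 in LhTERTL/cre+, 0.36 in LhTERTL, -0.01 in mock/cre+ and -0.10 in mock. LhTERTL was alone above 0 for this gene, and its 2 probe sets each gave a difference of 0.46 from mock. MVK, which phosphorylates mevalonate, varied least of the 12, between -0.11 in LhTERTL/cre+ and 0.05 in LhTERTL and mock. MVD, the decarboxylase that follows, stood at -0.10, 0.36, -0.16 and 0.10 in LhTERTL/cre+, LhTERTL, mock/cre+ and mock, with both cre+ lines below 0.

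Among the isoprenoid enzymes, IDI1, which interconverts the activated isoprene units, stood at -0.04 in LhTERTL/cre+, 0.21 in LhTERTL, 0.06 in mock/cre+ and -0.15 in mock. Its 4 probe sets gave LhTERTL minus mock differences between 0.06 and 0.62. FDPS, farnesyl diphosphate synthase, stood at -0.15 in LhTERTL/cre+, 0.32 in LhTERTL, 0.04 in mock/cre+ and -0.04 in mock, so that the long-telomere lines held both its highest and its lowest value. SQLE, squalene epoxidase, likewise had its extremes in the long-telomere lines, with -0.34 in LhTERTL/cre+ and 0.35 in LhTERTL, while mock/cre+ and mock were within 0.01 of 0. Its 4 probe sets all placed LhTERTL/cre+ lowest. LSS, which closes the ring to lanosterol, stood at -0.08 in LhTERTL/cre+, 0.38 in LhTERTL, -0.10 in mock/cre+ and -0.02 in mock. The LSS mean hides a disagreement, since its 3 probe sets gave LhTERTL minus mock differences between 0.00 and 0.82.

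The enzymes that turn lanosterol into cholesterol differed in how far mock stood from the cre+ lines. MSMO1, the C4 methyl oxidase, stood at -0.16 in LhTERTL/cre+, 0.42 in LhTERTL, -0.24 in mock/cre+ and 0.16 in mock, and DHCR7, which makes cholesterol from 7-dehydrocholesterol, stood at -0.12, 0.32, -0.19 and 0.12 in the same order. For 8 of the 12 sterol genes, MSMO1, DHCR7 and HSD17B7 among them, both cre+ lines lay below both lines without Cre, as they did for 15 of all 23 members, against 20.1% of all genes. HSD17B7, a 3-ketosteroid reductase of the C4 demethylation steps, had the largest value of the branch, at -0.04 in LhTERTL/cre+, 0.73 in LhTERTL, -0.02 in mock/cre+ and 0.02 in mock. Only LhTERTL stood away from the rest for HSD17B7, and it was 1.64-fold above mock and 1.70-fold above LhTERTL/cre+. HSD17B7 has 1 probe set, of the _x_at class. NSDHL, the dehydrogenase of the same demethylation steps, ranged from -0.16 in LhTERTL/cre+ to 0.13 in LhTERTL. SC5D, sterol C5 desaturase, stood at -0.23 in LhTERTL/cre+, 0.30 in LhTERTL, -0.03 in mock/cre+ and 0.19 in mock, but its 2 probe sets differed in sign for LhTERTL minus mock, at -0.32 and 0.54, and after quantile normalization SC5D was highest in mock.

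The fatty acid branch had a similar mean and a different make-up. It averaged -0.16 in LhTERTL/cre+, 0.39 in LhTERTL, -0.03 in mock/cre+ and 0.02 in mock, but its median in LhTERTL was 0.16 and its SD over 7 genes there was 0.56, against a median of 0.34 and an SD of 0.17 in the sterol branch. SCD, stearoyl-CoA desaturase, which makes monounsaturated fatty acids, accounted for much of that mean. SCD stood at -0.23 in LhTERTL/cre+, 1.57 in LhTERTL, -0.04 in mock/cre+ and 0.04 in mock. LhTERTL was 2.89-fold above mock and 3.50-fold above LhTERTL/cre+, and the 4 SCD probe sets gave LhTERTL minus mock differences between 1.13 and 1.84. All 4 are of the _s_at or _x_at class. Without SCD the mean LhTERTL minus mock difference of the branch was 0.17 and its median 0.08, against 0.36 and 0.09 with it.

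ELOVL6, which elongates palmitate to stearate, was the member for which mock/cre+ came closest to LhTERTL among those with a wide range. It stood at -0.28 in LhTERTL/cre+, 0.34 in LhTERTL, 0.32 in mock/cre+ and -0.51 in mock, so that each telomere group held a high and a low line. All 3 ELOVL6 probe sets placed mock lowest, and LhTERTL minus mock ranged from 0.24 to 1.30 among them. After quantile normalization, and without the _x_at and _s_at probe sets, ELOVL6 was highest in mock/cre+. ACSS2, which makes acetyl-CoA from acetate, followed Cre status: it stood at -0.37 in LhTERTL/cre+, 0.50 in LhTERTL, -0.39 in mock/cre+ and 0.37 in mock. Both cre+ lines were low and both lines without Cre were high for ACSS2, and after quantile normalization mock was the highest of the 4. ACSS2 has 1 probe set, of the _s_at class.

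The other 4 genes of the fatty acid branch differed less between the arrays by their probe set means. ACLY, which makes acetyl-CoA from citrate, lay between -0.06 in LhTERTL and 0.08 in mock/cre+. ACACA, acetyl-CoA carboxylase, lay between -0.14 in mock/cre+ and 0.06 in mock. FASN, fatty acid synthase, lay between -0.16 in LhTERTL/cre+ and 0.16 in LhTERTL, with 0.07 in mock, and its 2 probe sets disagreed on the sign of LhTERTL minus mock, at -0.08 and 0.27. FADS2, the delta-6 desaturase of polyunsaturated fatty acids, lay between -0.10 in LhTERTL/cre+ and 0.16 in LhTERTL, with probe sets at -0.18 and 0.30 for the same difference. ACACA, FASN and FADS2 had 2 probe sets each and ACLY 3, and the range of these 4 genes over the arrays, 0.14 to 0.31 log2 units, was below that of SCD at 1.81, ELOVL6 at 0.84 and ACSS2 at 0.89.

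The regulators and carriers had the largest values as a set, averaging -0.16 in LhTERTL/cre+, 0.63 in LhTERTL, -0.25 in mock/cre+ and -0.01 in mock over 4 genes. INSIG1, the retention protein named above, which is itself an SREBP target, stood at -0.48 in LhTERTL/cre+, 1.04 in LhTERTL, 0.18 in mock/cre+ and -0.18 in mock. The long-telomere lines were the highest and the lowest of the 4 for INSIG1, and LhTERTL was 2.33-fold above mock and 2.86-fold above LhTERTL/cre+. Its 3 probe sets gave LhTERTL minus mock differences between 1.16 and 1.32. STARD4, a carrier that moves sterols between membranes, stood at -0.09 in LhTERTL/cre+, 0.88 in LhTERTL, -0.93 in mock/cre+ and 0.09 in mock. STARD4 was the one member in which mock/cre+ stood far below the rest, and it has 1 probe set.

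The SREBP genes themselves differed less. SREBF1 stood at -0.07 in LhTERTL/cre+, 0.43 in LhTERTL, -0.18 in mock/cre+ and 0.06 in mock, and both of its probe sets were higher in LhTERTL than in mock, by 0.22 and 0.51. SREBF2 stood at 0.01 in LhTERTL/cre+, 0.15 in LhTERTL, -0.07 in mock/cre+ and -0.02 in mock. By gene means, SREBF2 was the only member whose long-telomere lines both lay above both short-telomere lines, which 11.4% of all genes did. ACLY was the only one whose long-telomere lines both lay below, which 11.7% of all genes did. The groups overlapped for the other 21. Single probe sets of both genes departed from their means. A SREBF2 probe set read -0.08 in LhTERTL/cre+, 0.37 in LhTERTL, -0.01 in mock/cre+ and 0.01 in mock. Another read -0.02, 0.06, -0.18 and 0.02 in the same order. Only the remaining SREBF2 probe set, at 0.12, 0.03, -0.03 and -0.07, separated the groups. An ACLY probe set overlapped, with LhTERTL at 0.002 and mock at -0.002, while its other probe sets separated the groups.

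**Figure D2:**
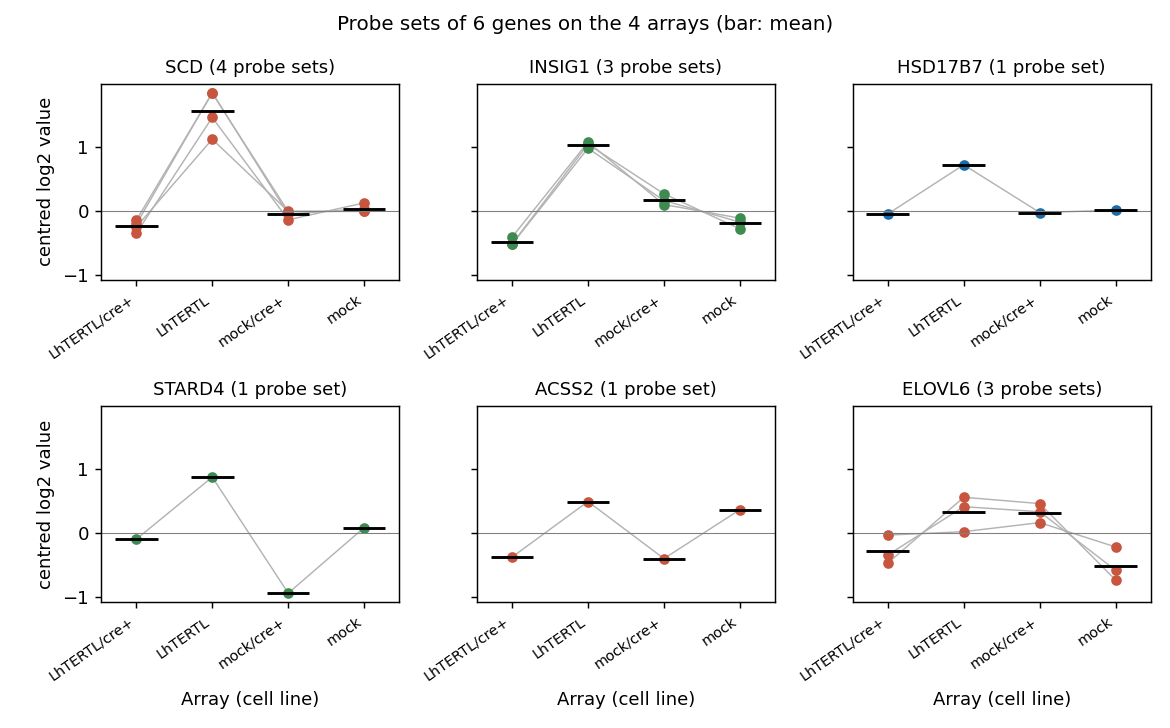
Centred log2 values of every probe set (points joined by lines) of SCD, INSIG1, HSD17B7, STARD4, ACSS2 and ELOVL6 on the arrays of LhTERTL/cre+, LhTERTL, mock/cre+ and mock, with the mean of the probe sets as a bar. SCD, INSIG1 and HSD17B7 are high in LhTERTL, ACSS2 is low in both cre+ lines, STARD4 is lowest in mock/cre+ at -0.93, and ELOVL6 is high in LhTERTL and mock/cre+.

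The question the series puts first is what differs between long and short telomeres, and for these genes the answer of the fit was 0 calls. With limma over 2 long and 2 short arrays, 0 members passed an adjusted p of 0.05, against 0% of all genes, and adjusted p = 1 for every member. At an unadjusted p of 0.05, 0 members passed, against 0.789% of all genes, or 156 genes. STARD4 had the largest difference, 0.82 ± 0.50 (moderated SE), with means of 0.39 in the long lines and -0.42 in the short lines. It was also the 1 member in the authors' deposited list of higher probe sets, and 0 members were in the authors' deposited list of lower ones. Both lists come from these same arrays, so they are no independent evidence.

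SCD differed by 0.67 ± 0.63, close to its standard error, and INSIG1 by 0.28 ± 0.55, less than its standard error. The SCD difference rested on LhTERTL: it was -0.23 without LhTERTL and 1.57 without LhTERTL/cre+, and INSIG1 moved likewise between -0.48 and 1.04. STARD4 stayed positive with any 1 array left out, between 0.30 and 1.33, although LhTERTL/cre+ at -0.09 lay below mock at 0.09. HMGCS1 (0.022 to 0.42), IDI1 (0.0062 to 0.25) and SREBF2 (0.052 to 0.20) also stayed positive, and ACLY stayed negative (-0.12 to -0.061). The mean long minus short difference was 0.11 in the sterol branch, 0.11 in the fatty acid branch and 0.37 in the regulators, against 0.00037 over all genes. Without LhTERTL these means were -0.12, -0.16 and -0.03.

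Matching the lines by Cre status gave 2 pairs, neither with a replicate. In LhTERTL minus mock, 21 of 23 members were above 0, against 45.1% of all genes, and 5 were at least 1.5-fold higher, against 5.73% of all genes: SCD at 1.53, INSIG1 at 1.22, ELOVL6 at 0.84, STARD4 at 0.79 and HSD17B7 at 0.71. After quantile normalization of the centred values, which narrows the LhTERTL array, 3 of the 5 remained past that fold. HSD17B7 at 0.51 and STARD4 at 0.52 were below it. The share of all genes past that fold was not counted in that setting. None of the members was 1.5-fold lower, against 3.73% of all genes. In LhTERTL/cre+ minus mock/cre+, 9 members were above 0, against 53.0% of all genes, and 14 below, against 46.7%. STARD4 alone was at least 1.5-fold higher, at 0.84, against 1.88% of all genes, and INSIG1 at -0.66 and ELOVL6 at -0.60 were at least 1.5-fold lower, against 3.55% of all genes.

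The sterol branch averaged 0.30 in LhTERTL minus mock and -0.08 in LhTERTL/cre+ minus mock/cre+, the fatty acid branch 0.36 and -0.13, and the regulators 0.64 and 0.09, against 0.01 and -0.01 over all genes. By their medians the first difference was 0.30 in the sterol branch, 0.09 in the fatty acid branch and 0.58 in the regulators, against -0.03 over all genes. The medians in LhTERTL/cre+ minus mock/cre+ were -0.06 in the sterol branch, -0.10 in the fatty acid branch and 0.10 in the regulators, against 0.01 over all genes. Of the 23 members, 13 were above 0 in the pair without Cre and below 0 in the pair with Cre, against 24.5% of all genes, and 8 were higher in both pairs, against 20.5%. In all, 14 members were opposite in sign in the pairs, against 57.0% of all genes. STARD4 was the only member past 1.5-fold in the same direction in both.

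**Figure D3:**
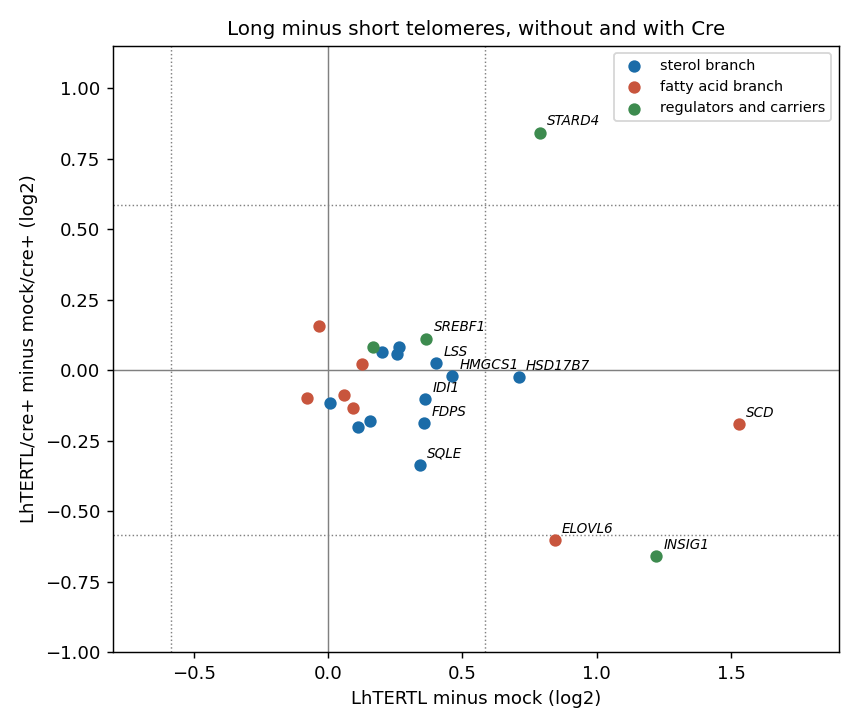
Difference in log2 value between LhTERTL/cre+ and mock/cre+ (vertical axis) against that between LhTERTL and mock (horizontal axis) for the 23 genes, coloured by branch, 1 array per line, with dotted lines at 1.5-fold. SCD, INSIG1 and ELOVL6 lie to the right and below 0, STARD4 lies to the upper right, and most sterol genes lie right of 0 and near 0 vertically.

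Within the long-telomere lines, LhTERTL/cre+ was below LhTERTL for 22 of 23 members, ACLY being the exception, against 48.5% of all genes. The mean LhTERTL/cre+ minus LhTERTL difference was -0.46 in the sterol branch, -0.55 in the fatty acid branch and -0.78 in the regulators, against -0.01 over all genes. At least 1.5-fold lower were 7 members, against 5.77% of all genes: SCD at -1.81, INSIG1 at -1.52, STARD4 at -0.97, ACSS2 at -0.87, HSD17B7 at -0.77, SQLE at -0.69 and ELOVL6 at -0.61. The count of members at least 1.5-fold higher was 0, against 5.08% of all genes. LhTERTL/cre+ also lay slightly below mock, with a mean difference of -0.16 in the sterol branch, -0.19 in the fatty acid branch and -0.15 in the regulators, and 10 members had their lowest value of the 4 arrays in LhTERTL/cre+, against 19.0% of all genes.

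The short-telomere lines give the same step of Cre without exogenous hTERT. There mock/cre+ was below mock for 16 members, against 55.1% of all genes, and the mean difference was -0.08 in the sterol branch, -0.05 in the fatty acid branch and -0.24 in the regulators, against 0.01 over all genes. ELOVL6 was 1.5-fold higher at 0.83, against 5.95% of all genes, and STARD4 at -1.03 and ACSS2 at -0.77 were 1.5-fold lower, against 3.31%. STARD4 and ACSS2 were thereby at least 1.5-fold lower with Cre in both pairs, which 0.607% of all genes were, and 16 members were lower with Cre in both pairs at any size, against 26.8%. In 9 members mock/cre+ was the lowest of the 4 arrays, against 30.4% of all genes.

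A fit of LhTERTL against the 3 lines with basal hTERT was added after the data had been seen, and it assumes that the lone LhTERTL array varies like the others. It called 0 members at an adjusted p of 0.05 in limma, against 0% of all genes, while 9 members had an unadjusted p under 0.05, against 12.9% of all genes. The smallest adjusted p was 0.105 for SCD, with a difference of 1.65 ± 0.16, followed by HSD17B7 at 0.74 ± 0.12 (adjusted p = 0.143) and INSIG1 at 1.20 ± 0.27 (adjusted p = 0.219). STARD4 differed by 1.19 ± 0.43 (adjusted p = 0.358). Without mock/cre+, SCD at 1.67 (adjusted p = 0.0248) and INSIG1 at 1.37 (adjusted p = 0.0382) passed in limma, among 485 genes. LhTERTL was set against the rest because it had been seen to be highest, so these p-values restate that observation and add no support to it. In these 4 lines hTERT overexpression and the line LhTERTL cannot be told apart.

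A fit of both cre+ lines against both lines without Cre, likewise added afterwards, called 0 members in limma, against 0% of all genes, with 5 members at an unadjusted p under 0.05, against 6.29% of all genes. ACSS2 differed by -0.82 ± 0.11 and STARD4 by -0.999 ± 0.404, and adjusted p = 0.772 for both. Besides ACSS2, the members with an unadjusted p under 0.05 were MVD at -0.36 ± 0.13, MSMO1 at -0.49 ± 0.14, SC5D at -0.38 ± 0.13 and DHCR7 at -0.37 ± 0.12.

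Other genes of sterol and fatty acid metabolism were listed by function and compared in the same way, and none was called in any of the 3 fits. Of 6 further sterol synthesis enzymes 2 were highest in LhTERTL, against 27.6% of all genes. They were PMVK (phosphomevalonate kinase) at 0.39 and GGPS1 (geranylgeranyl diphosphate synthase) at 0.34. TM7SF2 and LBR, both sterol C14 reductases, went separate ways, TM7SF2 being lowest in mock/cre+ at -0.65 and LBR highest there at 0.48 and lowest in mock at -0.58. Of 6 genes of SREBP processing 3 were highest in LhTERTL, against the same 27.6%, at small values such as MBTPS2 (the site-2 protease) at 0.20. SEC24D, a coat protein of the vesicles that leave the endoplasmic reticulum, was lowest in mock/cre+ at -0.91, and SEC23A, another coat protein, highest in LhTERTL/cre+ at 0.38.

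Of 7 genes of sterol uptake and transport 3 were highest in LhTERTL, against 27.6% of all genes. Among them NPC1, which exports cholesterol from lysosomes, stood at -0.15 in LhTERTL/cre+, 0.30 in LhTERTL, -0.17 in mock/cre+ and 0.12 in mock. NPC2, its soluble partner, lay between -0.08 in LhTERTL and 0.19 in LhTERTL/cre+. OSBP, an oxysterol-binding lipid carrier, stood at 0.30 in LhTERTL/cre+, -0.30 in LhTERTL, -0.77 in mock/cre+ and 0.57 in mock, and SOAT1, which esterifies cholesterol, was lowest in LhTERTL at -0.30. Of 6 genes of the LXR group, the sterol-activated receptors and their targets for efflux, 4 were highest in LhTERTL, against 27.6% of all genes. ABCG1, a cholesterol exporter, stood at 0.04 in LhTERTL/cre+, 1.45 in LhTERTL, -0.50 in mock/cre+ and -0.04 in mock, with a long minus short difference of 1.01. MYLIP, a ubiquitin ligase that LXR induces, stood at 0.46 in LhTERTL and -0.52 in LhTERTL/cre+, while ABCA1 at 0.09 and SMPDL3A at 0.21 were highest in LhTERTL by less.

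Of 11 further genes of fatty acid synthesis and activation 4 were highest in LhTERTL, against 27.6% of all genes. Of these 4, 2 exceeded every member. ELOVL7, an elongase of long-chain fatty acids, stood at -0.75 in LhTERTL/cre+, 1.95 in LhTERTL, 0.75 in mock/cre+ and -0.98 in mock. ACSL1, which activates long-chain fatty acids to acyl-CoA, stood at -0.53 in LhTERTL/cre+, 1.59 in LhTERTL, 0.53 in mock/cre+ and -0.90 in mock. Like ELOVL6, both had mock as the lowest line, LhTERTL/cre+ next and the other 2 lines high. ME1, malic enzyme, which supplies NADPH for synthesis, stood at 0.03 in LhTERTL/cre+, 0.59 in LhTERTL, -0.07 in mock/cre+ and -0.20 in mock.

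Of 8 genes of glycerolipid synthesis 1 was highest in LhTERTL, against 27.6% of all genes. It was LPIN1 (a phosphatidic acid phosphatase) at 0.33. DGAT2, which makes triglyceride, stood at 0.21 in LhTERTL/cre+, -0.45 in LhTERTL, 1.10 in mock/cre+ and -0.30 in mock, and GPAM, a mitochondrial glycerol-3-phosphate acyltransferase, was also highest in mock/cre+, at 0.58. GPAT4, an acyltransferase of the endoplasmic reticulum, was lowest in LhTERTL at -0.15. Of 8 genes of fatty acid oxidation 5 were highest in LhTERTL, against the same 27.6%, at values of 0.30 or less, led by ECI1. CPT1A, which admits fatty acids to mitochondria, was lowest in LhTERTL at -0.21 and highest in LhTERTL/cre+ at 0.37. ACADM was highest in LhTERTL/cre+ at 0.28, and ACADVL at 0.06 and PDK4 at 0.13 were highest in LhTERTL. The median LhTERTL value was -0.09 in the glycerolipid list and 0.08 in the oxidation list, against 0.34 over all members and -0.0048 over all genes.

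**Figure D4:**
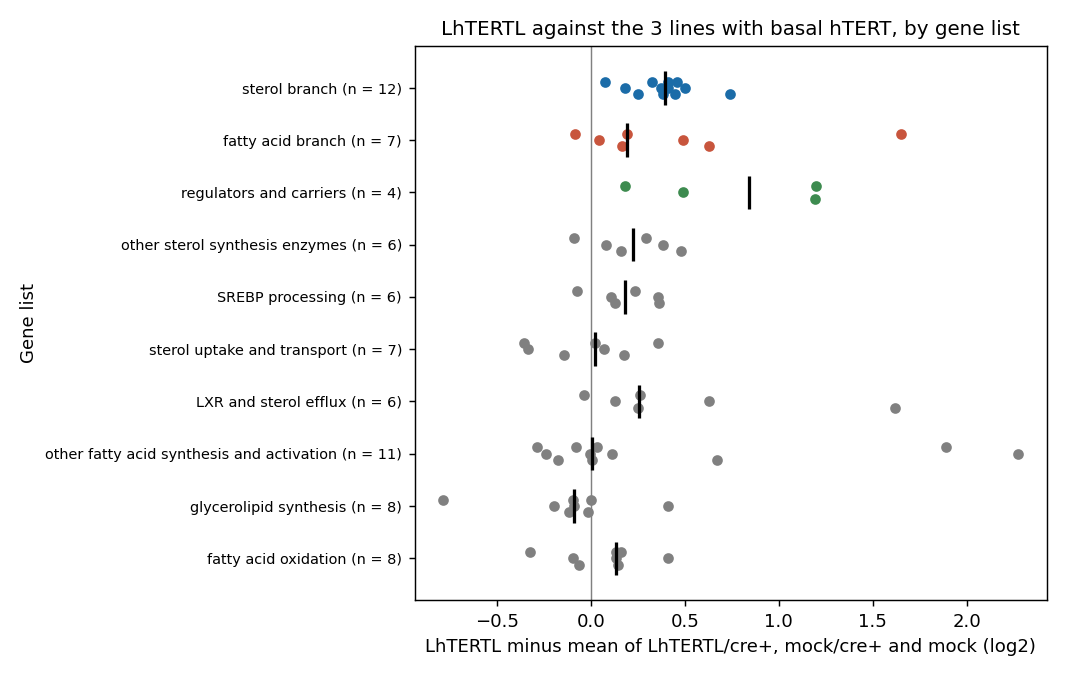
LhTERTL minus the mean of LhTERTL/cre+, mock/cre+ and mock (log2, horizontal axis) for each gene (points) of the sterol branch, fatty acid branch, regulators and carriers and 7 related lists (rows), with the median as a black bar. The 12 sterol genes lie between 0.07 and 0.74, while the fatty acid branch and the related fatty acid list hold most genes near 0 and a few far to the right, up to ELOVL7 at 2.27.

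Markers of cell types that a culture could hold were read in the same way, as differences only. Of the epithelial markers 3 of 6 were highest in LhTERTL, against 27.6% of all genes. Their list means were -0.20 in LhTERTL/cre+, 0.21 in LhTERTL, -0.05 in mock/cre+ and 0.07 in mock. Highest in LhTERTL were 0 of 4 leukocyte, 2 of 6 fibroblast, 3 of 6 adipocyte and 3 of 6 hepatocyte markers, against the same 27.6%. The list means in LhTERTL were -0.06, 0.04, -0.07 and 0.10. The part of any such difference, or of the wider spread of the LhTERTL array, in the lipid gene values was not tested.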

How the data were processed

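RNA of 4 PC-3 derivatives was measured on 1 Affymetrix U133 Plus 2.0 array each. The deposited values are on a log2 scale; RMA, which corrects background, quantile-normalizes arrays and summarises probe sets, is named by the submitters' processing notes without a version. In the deposited table each probe set's median over the 4 arrays was 0 within 5e-07, so levels are unknown and no filter on low values was possible. Higher was taken as higher expression. The authors also deposited lists of higher and lower probe sets; in the lower list the LhTERTL and mock/cre+ columns hold each other's values (0% equal to the series table, against 100% for the other columns), so only names were used.

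Groups came from the labelled telomere status. Of 54675 probe sets, 62 controls were left out, and 41091 carried 1 gene symbol, 1801 several and 11721 none in the platform annotation. Genes are means of their probe sets with that symbol alone. Under R 4.3.3, limma 3.58.1 (lmFit, then eBayes) gave two-sided tests of long against short arrays with 2 residual degrees of freedom, and p-values were adjusted by Benjamini-Hochberg over all 19775 genes and called at 0.05; ± gives the moderated standard error. With 2 arrays a group, the smallest two-sided exact permutation p is 0.333. Differences between single arrays have no test and were counted at 1.5-fold. The hTERT and Cre fits were added after the data had been seen. The number of arrays limits the precision. Alternatives changed the scaling, probe set summary, variance model, filter, covariate, fold and arrays used. The alternative with quantile normalization was run on the deposited centred values, and it equalises the spread of the arrays. The members and lists were chosen with earlier results of these data known. All members are named, and of each related list the 3 genes with the largest long minus short difference and the 3 with the largest difference between the Cre-matched pairs. Motifs were searched in RefSeq promoter windows of 300 bases (GRCh38.p14) with Python 3.11.15.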

Additional observations from a re-analysis of the deposited data

Results flagged for a closer look

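Some values pointed in opposite directions in the 2 pairs of lines matched by Cre status: above 0 for LhTERTL minus mock and below 0 for LhTERTL/cre+ minus mock/cre+, or the reverse. With 1 array per line the difference between the pairs was not tested, and groups of 2 arrays are too small to look for an outlying sample. The value given is LhTERTL minus mock, less LhTERTL/cre+ minus mock/cre+, in log2 units. It was 0.38 for the mean of the sterol branch and 0.50 for the mean of the fatty acid branch, while the regulators, at 0.64 and 0.09, kept their direction.

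Of the 23 measured members, 14 differed in this way, or 60.9%, against 57.0% of all genes, so the count itself is near the background. INSIG1, which holds the SREBP escort back, had the widest gap at 1.88, followed by the desaturase SCD at 1.72 and the elongase ELOVL6 at 1.45. Among the sterol enzymes the gap was 0.73 for HSD17B7, 0.68 for SQLE, 0.55 for FDPS, 0.48 for HMGCS1, 0.47 for IDI1, 0.34 for NSDHL, 0.31 for SC5D and 0.13 for MVK. For FASN it was 0.23 and for FADS2 0.15. ACACA was the reverse case at -0.19, lower in LhTERTL than mock and higher in LhTERTL/cre+ than mock/cre+. Small gaps, such as those of MVK and FADS2, lie within the differences between probe sets of these genes. For ACACA both probe sets were higher in LhTERTL/cre+ than mock/cre+, by 0.10 and 0.21. They differed in sign for LhTERTL minus mock, at -0.09 and 0.02.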

How the results depend on the processing

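Long minus short called 0 members under each of 12 alternatives. Among all genes only the filter on SD above the median gave calls, 5 genes and 18 probe sets against 0 and 0 otherwise. In the hTERT fit that filter called 235 genes and leaving out mock/cre+ 485, and in the Cre fit the filter called 118, against 0 otherwise. The hTERT fit called 0 members except 1 (SCD, adjusted p = 0.00932) with that filter, which keeps genes by a spread that LhTERTL itself sets and so gives no support, and between 0 and 2 with 1 array left out, the 2 being SCD and INSIG1 without mock/cre+; the Cre fit called 0 under every alternative. The adjusted p of SCD in the hTERT fit ranged from 0.00932 to 0.741, with the highest after quantile normalization, which also brought its long minus short difference to 0.33 and that of INSIG1 to 0.05. At 2-fold in place of 1.5-fold the members higher in LhTERTL than mock were 2, those lower in LhTERTL/cre+ than LhTERTL 2, those lower in mock/cre+ than mock 1, and those higher in mock/cre+ than mock, or higher or lower in LhTERTL/cre+ than mock/cre+, 0. Quantile normalization left 3 higher in LhTERTL than mock, and leaving out _x_at and _s_at probe sets left 1 lower in LhTERTL/cre+ than mock/cre+. The share of all genes was not counted at 2-fold or in either of these settings, so these counts have no background beside them. Without LhTERTL the mean long minus short difference was -0.12 in the sterol branch, -0.16 in the fatty acid branch and -0.03 in the regulators, against 0.11, 0.11 and 0.37 with all arrays.

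Long minus short changed sign for SQLE (-0.081 after quantile normalization, -0.084 with the probe set of highest SD, -0.034 without _x_at and _s_at), ACSS2 (-0.095 after quantile normalization), NSDHL (0.015), SC5D (0.20), FASN (0.048) and FADS2 (0.13) with the probe set of highest SD, and OSBP (-0.049 without _x_at and _s_at). FADS2 in the hTERT fit was -0.087 without _x_at and _s_at. With 1 array left out in turn, where an arm may hold 1 array that is assumed to vary like the rest, long minus short spanned both signs for MVK -0.14 to 0.028, MVD -0.074 to 0.39, FDPS -0.15 to 0.32, SQLE -0.34 to 0.35, LSS -0.014 to 0.44, MSMO1 -0.12 to 0.46, NSDHL -0.16 to 0.13, HSD17B7 -0.041 to 0.73, SC5D -0.31 to 0.22, DHCR7 -0.087 to 0.35, ACSS2 -0.36 to 0.51, ACACA -0.035 to 0.16, FASN -0.18 to 0.14, ELOVL6 -0.29 to 0.54, SCD -0.23 to 1.57, FADS2 -0.15 to 0.12, SREBF1 -0.0096 to 0.49, INSIG1 -0.48 to 1.04, GGPS1 -0.066 to 0.36, TM7SF2 -0.052 to 0.68, SEC24D -0.15 to 0.998, NPC1 -0.12 to 0.32, OSBP -0.57 to 0.77, SOAT1 -0.46 to 0.071, ELOVL7 -0.64 to 2.06, ACSL1 -0.35 to 1.77, GPAM -0.70 to 0.18 and DGAT2 -1.22 to 0.18. ACACA in the hTERT fit ranged from -0.013 to 0.086. None of these was called in the main fits on all arrays. The labels give no replicate numbers to block on; lines were matched by Cre status instead, as a covariate on 1 residual degree of freedom, and 0 members were called. A filter on low values could not be run on centred values. Signal over background is unknown, so small differences in dim probe sets cannot be set apart from those in bright ones.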
